A study of Homo sapiens with 7 samples.

Results

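Podocalyxin, its relative endoglycan, endolyn, 5 transmembrane mucins and the hyaluronan receptor CD44 were followed across 7 arrays of the human pancreatic cancer line Panc1. The 9 genes were PODXL, PODXL2, CD164, CD44, MUC1, MUC4, MUC13, MUC16 and MUC20. They were chosen from a reading of these same arrays, with the difference of PODXL between the vector clones V1 and V3 already known, so that difference is given as a description. All probe sets annotated to exactly 1 of these symbols were taken, which gave 34 of the 54613 probe sets tested. CD44 had 13 of them, MUC4 had 6, MUC20 had 4, CD164 and MUC1 had 3 each, MUC13 had 2, and PODXL, PODXL2 and MUC16 had 1 each.

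The study asked which genes S100P, a small calcium-binding protein, regulates. Panc1 cells had received pcDNA3.1/S100P-V5-His, or the control vector pcDNA3.1/V5-His, and stable single-cell clones had been picked. The S100P arm held 4 arrays, a and b of clone 1 and a and b of clone 5, and the vector arm held 3 arrays, a and b of clone V3 and 1 of clone V1. All clones grew in DMEM with fetal bovine serum, and all share the vector backbone and the selection of a single cell, so each arm rests on 2 clones. The labels do not say whether a and b were separate cultures, and a p-value here reflects nothing beyond the scatter of the arrays and clones at hand, part of which may be technical. The V1 array also carries another label prefix than the other 6, and its clone and any separate handling cannot be told apart.

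Sialomucins and mucins are membrane or secreted proteins whose extracellular part is densely covered with O-linked sugar chains, often capped with negatively charged sialic acid. At the cell surface they can keep neighbouring cells apart, as podocalyxin does on kidney podocytes, or carry the sugar groups that selectins bind. In podocalyxin and some others, a short cytoplasmic tail links to the actin skeleton through ezrin and its relatives. CD44 binds hyaluronan, a long matrix polysaccharide, and is made in many forms through alternative splicing of its variable exons. Transmembrane mucins line the ducts of the normal pancreas, and several of them are known as antigens of carcinomas.

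CD44 read lower on V3 than on the S100P arrays and on V1 at most of its probe sets. MUC16 read higher on V3 than elsewhere, and MUC1 was nearly level. The start regions of these 3 genes are shown to let the reader see the DNA behind genes with contrasting readings. Each is 250 bases before to 50 bases after an annotated start in RefSeq, build GRCh38.p14, printed 5′ to 3′ on the strand of the gene. Capitals mark GGGCGG and TATAAA on either strand. CD44 lies at chr11:35138921-35139220 on the plus strand, MUC16 at chr19:9065702-9066001 on the minus strand and MUC1 at chr1:155192866-155193165 on the minus strand.
CD44: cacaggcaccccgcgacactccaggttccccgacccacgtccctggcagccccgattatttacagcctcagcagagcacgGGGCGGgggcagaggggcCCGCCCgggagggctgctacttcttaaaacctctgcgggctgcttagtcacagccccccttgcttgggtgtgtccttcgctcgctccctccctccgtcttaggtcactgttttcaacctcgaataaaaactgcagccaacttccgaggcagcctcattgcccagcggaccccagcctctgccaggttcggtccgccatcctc
MUC16: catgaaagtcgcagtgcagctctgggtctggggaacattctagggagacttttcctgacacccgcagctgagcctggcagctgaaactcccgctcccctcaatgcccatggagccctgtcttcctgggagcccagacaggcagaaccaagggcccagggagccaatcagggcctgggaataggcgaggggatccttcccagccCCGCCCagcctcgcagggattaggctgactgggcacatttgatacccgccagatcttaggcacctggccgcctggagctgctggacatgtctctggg
MUC1: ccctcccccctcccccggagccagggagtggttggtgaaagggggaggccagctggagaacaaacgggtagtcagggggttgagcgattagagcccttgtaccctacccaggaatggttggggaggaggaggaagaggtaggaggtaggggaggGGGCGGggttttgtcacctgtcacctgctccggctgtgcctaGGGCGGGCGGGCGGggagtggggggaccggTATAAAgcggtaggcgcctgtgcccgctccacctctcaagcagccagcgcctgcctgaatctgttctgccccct

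Of the 9 genes, 7 had such a window, and CD164, MUC1 and MUC16 each had a second. GGGCGG, the core of the GC box, was in 45% of the 35116 windows of all genes, TATAAA in 11.5% and CCAAT in 34.6%, each on either strand. The CD44 window was 63.33% G and C, against a median of 58.67% over all windows, and held GGGCGG at -170 on the gene's strand and at -152 on the opposite one, with the start counted as 0. The printed MUC16 window was 62% G and C and held GGGCGG at -47 on the opposite strand and CCAAT at -89. The second MUC16 window was 64% G and C and held none of these motifs. The printed MUC1 window was 65.67% G and C, and held TATAAA at -24 and 4 copies of GGGCGG, of which those at -54, -50 and -46 overlap each other. The PODXL2 window was 84% G and C with 6 copies of GGGCGG, the CD164 windows held none, and the MUC13 window was 41% G and C. These matches describe the letters only.

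Values are log2 expression values as the authors deposited them, so a difference of 1 is a doubling or a halving, and levels are compared between arrays within a probe set only. The array medians lay between 4.51 and 4.58. Arrays of the same clone correlated at 0.9955 to 0.9982 across probe sets, and V1 correlated with the others at 0.982 to 0.990. The 1 probe set of S100P did not separate the arms as labelled: it read 5.36 to 5.95 on the S100P arrays, against 4.65 to 6.01 on the vector arrays (fitted difference 0.27, SE 0.32, limma adjusted p = 0.846). Whether it can read the transgene is not given in the sources used here, so directions in the text go by the labels of the clones. The 3′ minus 5′ difference of the ACTB control probe sets, a reading of RNA integrity, was 0.27 to 0.53 on the S100P arrays, highest in clone 1, and 0.18 to 0.32 on the vector arrays. Its part in the results was not tested.

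Across the set, PODXL read lower on the S100P arrays. The fitted difference was positive at 12 of the 13 CD44 probe sets, but the arms overlapped at 8 of the 13. CD164 was bright and MUC1 lay above the array median, both close to level, and MUC4, MUC16 and MUC20 were dim. In the arm comparison (limma with the clone as a random block, Benjamini-Hochberg adjustment over all probe sets, threshold 0.05) 0 of the 34 probe sets passed, where 1.12% of all probe sets did (0.776% higher and 0.342% lower). At an unadjusted p under 0.05 there were 8 of 34, and 6468 of all 54613. All S100P arrays lay above all vector arrays at 6 of the 34 probe sets, 5 of CD44 and 1 of CD164, where 6.74% of all probe sets did so. They lay below at 1, that of PODXL, where 4.63% of all did so. The arms overlapped at the other 27. The median fitted difference was 0.04 over the 34 probe sets and -0.0024 over all, and the median size of the difference, regardless of sign, was 0.101 and 0.103. Since these are bulk RNA samples, fewer cells that express a gene and less RNA per cell cannot be told apart.

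**Figure D1:**
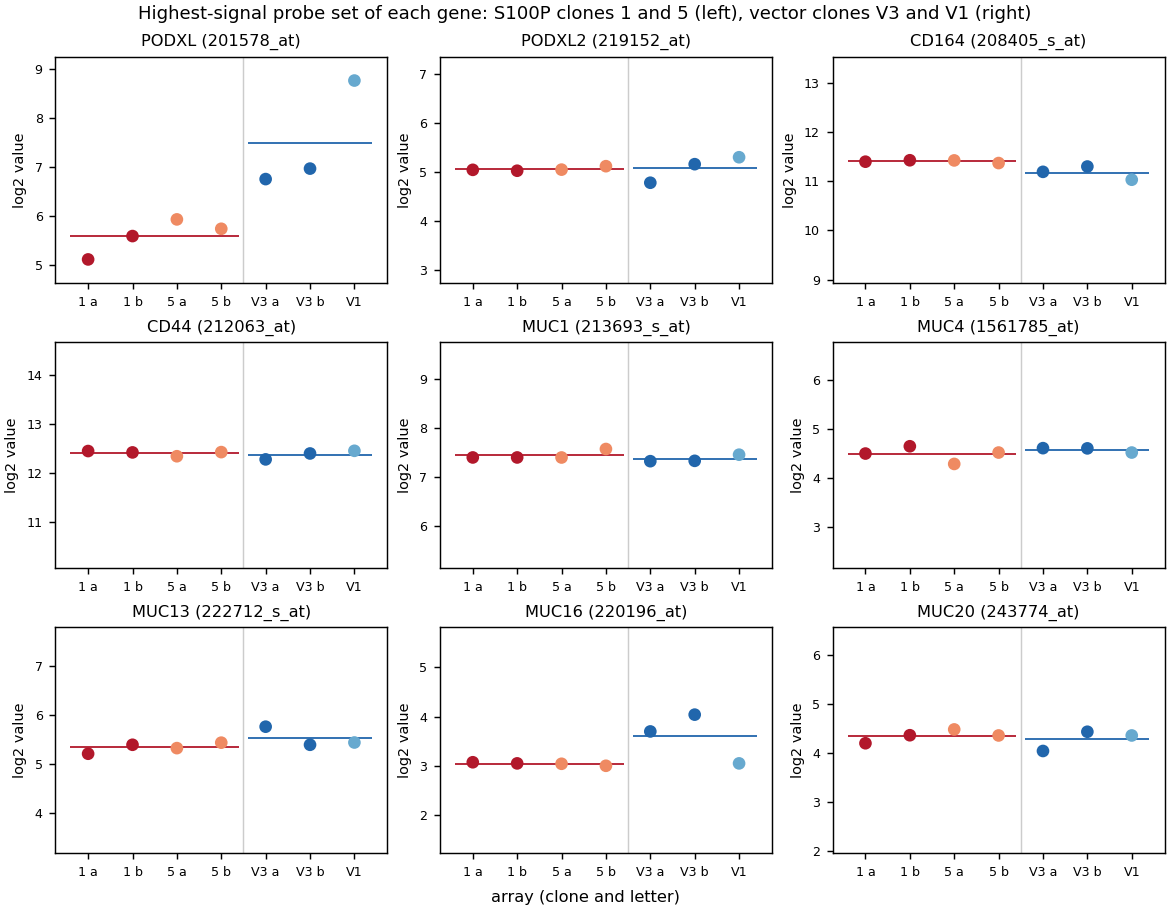
Each panel shows 1 gene at its probe set of highest mean signal, with the log2 value (y axis, the same span in all panels) on each array (x axis). Red and orange points are S100P clones 1 and 5, dark and light blue points are vector clones V3 and V1, and horizontal lines are arm means. PODXL lies at 5.12 to 5.94 in the S100P clones and at 6.76 to 8.77 in the vector clones, while CD44 at this probe set and MUC1 are nearly flat.

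Podocalyxin, the anti-adhesive sialomucin first described on podocytes, was the member with the largest separation. PODXL read 5.12 and 5.60 in clone 1, 5.94 and 5.75 in clone 5, 6.76 and 6.97 in V3 and 8.77 in V1. Every S100P array was thus lower than every vector array, and V1 was far higher than V3. The mean was 5.60 ± 0.35 in the S100P arm and 7.50 ± 1.10 in the vector arm (SD, n = 4 and 3 arrays). The fitted difference was -2.01 (SE 0.47), or 4.02-fold lower in the S100P clones, with a limma adjusted p of 0.106 that did not pass the threshold. The vector clones lay 1.90 apart (V1 minus V3, 3.73-fold), nearly as far as the arms did. Against V3 alone the S100P arrays averaged 1.26 lower, and against V1 alone 3.17 lower. Leaving out V1 gave a called difference of -1.26 (limma adjusted p = 0.0282), with clone V3 alone as the vector. With clone V3 left out the vector arm is the 1 array of V1, so the spread comes from the S100P arrays alone and V1 is assumed to vary like them. The value was then -3.17. PODXL was chosen with the difference between V1 and V3 known. This value, and in part the fitted -2.01, therefore rests on a reading already seen, and no p-value is given for the fit without V3. Over all 17 alternatives the difference ran from -3.17 to -1.26 and the adjusted p from 0.0282 to 0.562, so the direction held in each of them and the call did not. By clone the order was clone 1 (mean 5.36), clone 5 (5.84), V3 (6.86) and V1 (8.77). Clone 5 minus clone 1 was 0.48 (SE 0.17, limma adjusted p = 0.232), close to the widest gap between arrays a and b of one clone, also 0.48. The only probe set of PODXL leaves no second reading of the gene on this array.

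Endoglycan, the podocalyxin relative encoded by PODXL2 that can serve as a selectin ligand, did not follow it. PODXL2 read 5.04, 5.03, 5.05 and 5.12 on the S100P arrays, all inside the vector range of 4.78, 5.16 and 5.30. Its fitted arm difference was -0.04 (SE 0.14, limma adjusted p = 0.957). The V1 array was its highest, 0.33 above the V3 mean, and V3 a its lowest.

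**Figure D2:**
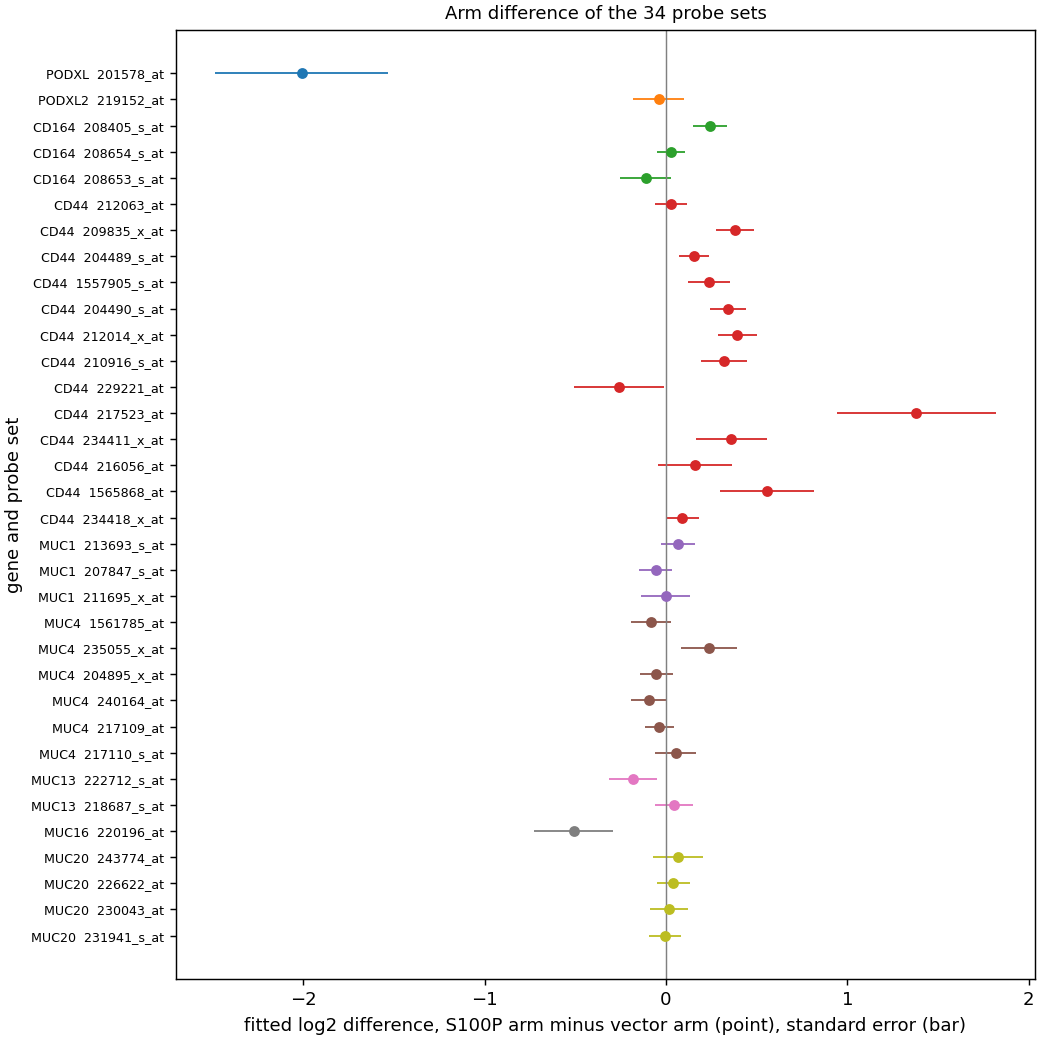
Points are fitted log2 differences, S100P arm minus vector arm, for the 34 probe sets (rows, grouped by gene), and bars are standard errors. PODXL stands lowest at -2.01 and CD44 probe set 217523_at highest at 1.38, and most of the others lie near 0.

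CD44 was bright and tended to be higher in the S100P clones, by amounts that differed widely between its probe sets. Of its 13 probe sets, 12 had a positive fitted difference, from -0.26 to 1.38 with a median of 0.32, and none of them passed the test. The probe sets of 1 gene read overlapping transcripts and are not independent of each other. The probe set with the largest difference, 217523_at, read 8.06 and 7.96 in clone 1, 7.83 and 7.90 in clone 5, 5.64 and 6.05 in V3 and 7.68 in V1. The S100P arrays and V1 were thus close together, and the V3 arrays were far below both. Its fitted difference was 1.38 (SE 0.44, 2.60-fold higher, limma adjusted p = 0.238). The S100P mean lay 2.10 above V3 but 0.26 above V1.

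The brightest CD44 probe set, 212063_at, was flat. It read 12.45, 12.42, 12.35 and 12.43 on the S100P arrays, against 12.28, 12.40 and 12.46 on the vector arrays, with a fitted difference of 0.03 (SE 0.09, limma adjusted p = 0.956). Between these extremes lay 6 further bright probe sets with differences of a similar, small size. At 212014_x_at the S100P arrays read 11.27, 11.27, 11.31 and 11.29, and the vector arrays 10.71, 10.83 and 11.08. The S100P arrays lay within a narrow band above all the vector arrays, and the fitted difference was 0.39 (SE 0.11, limma adjusted p = 0.157). At 209835_x_at the values were 12.16, 12.20, 12.29 and 12.17 on the S100P arrays and 11.67, 11.75 and 12.00 on the vector arrays (0.38, SE 0.11, limma adjusted p = 0.176). At 204490_s_at they were 11.37, 11.43, 11.28 and 11.38 on the S100P arrays and 10.88, 11.00 and 11.16 on the vector arrays (0.34, SE 0.10, limma adjusted p = 0.193). The arms did not overlap at either, with V1 the nearest vector array. The fifth non-overlapping CD44 probe set, 204489_s_at, differed by 0.15, with S100P arrays at 11.75 to 11.86 and vector arrays at 11.58 to 11.70. In Affymetrix naming, an x before the ending marks probe sets whose probes can also match other transcripts, so those readings are the less specific ones.

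The remaining probe sets overlapped between the arms. At 210916_s_at the S100P arrays read 10.99 to 11.13, against 10.52 and 10.61 in V3 and 10.99 in V1, and 1557905_s_at had the same layout, with 11.28 to 11.43 on the S100P arrays, 11.00 and 10.97 in V3 and 11.33 in V1. V1 was inside the S100P range at both. At 229221_at and 216056_at, V1 instead lay above every S100P array. The first read 7.62, 7.61, 7.40 and 7.34 on the S100P arrays, 7.22 and 7.54 in V3 and 8.33 in V1, and its fitted difference was the negative one (-0.26, SE 0.25). The second read 5.50, 5.44, 5.32 and 5.57 on the S100P arrays, 5.02 and 4.96 in V3 and 5.77 in V1. The dim probe set 234418_x_at stayed between 2.87 and 3.13, below the array median throughout.

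**Figure D3:**
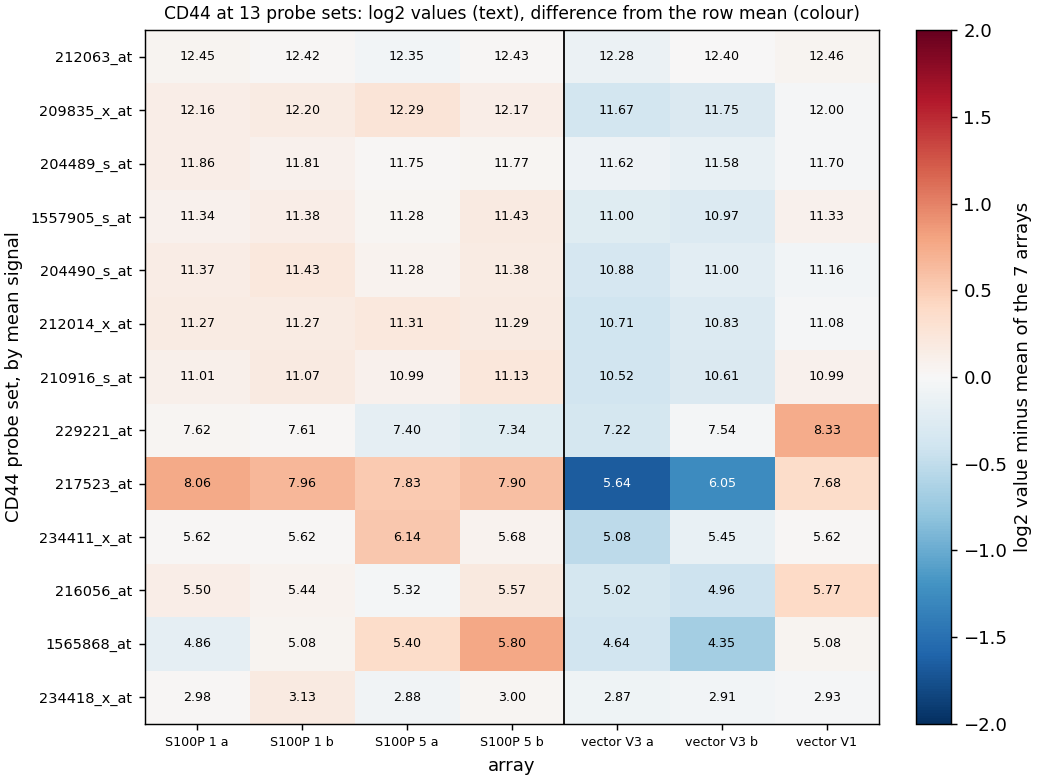
Rows are the 13 CD44 probe sets from high to low mean signal and columns are the arrays, S100P clones left of the line and vector clones right of it. Numbers are log2 values and colours are the log2 difference from the mean of the row. Both V3 columns are blue at nearly every row, and the V1 column is pale or red.

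CD44 set the V3 clone apart more than it set the arms apart. At 10 of its 13 probe sets all S100P arrays lay above both V3 arrays, where 12.4% of all probe sets did so. The V1 array lay above both V3 arrays at 13 of 13, where 38.9% of all probe sets did so, by 0.04 to 1.83 with a median of 0.34. Against V1, the S100P arrays were all higher at 5 of the 13 and all lower at 3. The shares of all probe sets that do so against the 1 array of V1 are not given here, so these counts only describe CD44. Leaving out V1, which leaves clone V3 alone to stand for the vector, called 6 CD44 probe sets higher, with limma adjusted p from 6.05e-04 at 217523_at to 0.0453 at 216056_at. That fit called 1139 of all 54613 probe sets higher, against 424 with V1 kept, and the probe sets of 1 gene are not independent. With V3 left out the vector arm is the single V1 array, assumed to vary like the S100P arrays, and 217523_at then differed by 0.26 (limma adjusted p = 0.283). Over its 17 alternatives the adjusted p of 217523_at ran from 6.05e-04 to 0.708, and that of 216056_at from 0.0453 to 0.965.

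**Figure D4:**
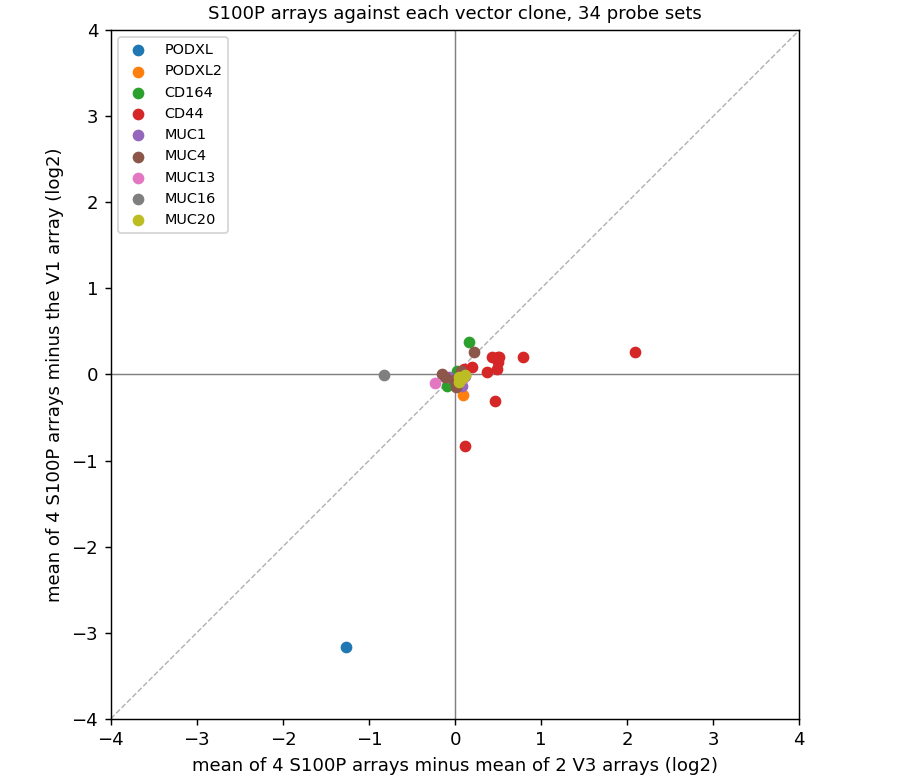
Each point is 1 of the 34 probe sets, coloured by gene. The x axis is the mean of the S100P arrays minus the V3 mean and the y axis the same mean minus the V1 array, in log2 units, and the dashed line marks equal differences. PODXL is low on both axes (-1.26 and -3.17), CD44 probe set 217523_at is high against V3 (2.10) and near 0 against V1 (0.26), and MUC16 is low against V3 alone (-0.83).

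Endolyn, the sialomucin encoded by CD164 that cycles between the surface and lysosomes, was bright and close to level. At 208405_s_at it read 11.40, 11.43, 11.43 and 11.37 on the S100P arrays, against 11.19, 11.30 and 11.03 on the vector arrays. The arms did not overlap there, but the fitted difference of 0.24 (SE 0.09) had a limma adjusted p of 0.350. The other CD164 probe sets overlapped: 208654_s_at read 10.79 to 10.83 on the S100P arrays and 10.76 to 10.81 on the vector arrays, and 208653_s_at read 9.51 to 9.99 on the S100P arrays and 9.79 to 9.85 on the vector arrays.

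MUC1, the transmembrane mucin of ductal epithelium whose tail takes part in signalling, was level. Its brightest probe set, 213693_s_at, read 7.40, 7.40, 7.40 and 7.57 on the S100P arrays and 7.32, 7.33 and 7.46 on the vector arrays, a fitted difference of 0.06 (SE 0.09, limma adjusted p = 0.881). At 207847_s_at the values were 6.47 to 6.51 on the S100P arrays and 6.48 to 6.67 on the vector arrays, and at 211695_x_at 4.73 to 5.01 and 4.65 to 5.02. All 3 overlapped between the arms and lay above the array median on every array.

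MUC16, a very large mucin known as an ovarian cancer antigen and as a ligand of mesothelin, read near the low end of the arrays but split the vector clones. It read 3.07, 3.05, 3.04 and 2.998 on the S100P arrays, 3.70 and 4.04 in V3 and 3.05 in V1, all below the array median. The V3 arrays were the high ones, and V1 lay among the S100P arrays. Over both vector clones the fitted difference was -0.51 (SE 0.22, limma adjusted p = 0.408). Leaving out V1 gave -0.83 (limma adjusted p = 0.00976), a comparison with 1 vector clone, while leaving out V3 gave -0.01. The adjusted p ran from 0.00976 to 0.989 over the 16 alternatives in which it was tested. A dim probe set on this scale understates a change, and no detection calls were used here, so the size is uncertain.

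The other mucins gave little signal. MUC13, a mucin of the intestinal surface, read 5.21, 5.39, 5.32 and 5.43 on the S100P arrays at 222712_s_at and 5.76, 5.39 and 5.43 on the vector arrays, a fitted difference of -0.18 (SE 0.13, limma adjusted p = 0.697). Its other probe set, 218687_s_at, stayed between 3.63 and 3.88. MUC4, a mucin that can bind the receptor ERBB2, had 6 probe sets between 2.47 and 4.65, of which 5 were below the array median on every array. Their fitted differences ran from -0.09 to 0.24, the highest at 235055_x_at with 3.58, 3.88, 4.17 and 3.80 on the S100P arrays and 3.62, 3.65 and 3.60 on the vector arrays. MUC20, a mucin reported to bind the receptor MET and the neighbour of MUC4 on chromosome 3 with 0 RefSeq genes wholly between them, had 4 probe sets between 2.75 and 4.48. All were below the array median throughout, with differences of -0.01 to 0.07. Over the 34 probe sets, 12 were below the median on all 7 arrays and 20 were above it on all. Of the 34, 17 had the same value on 2 or more arrays, and 1 MUC4 probe set, 240164_at, read 3.57 on 5 arrays.

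Clones 5 and 1 of the S100P arm differed little at these genes. In the comparison of clone 5 minus clone 1 (limma with the 4 clones as fixed effects, 3 residual degrees of freedom) 0 of the 34 probe sets passed, where 2.19% of all probe sets did. At an unadjusted p under 0.05 there were 2 of 34, PODXL and CD44 1565868_at, and 8323 of all 54613. The CD44 probe set 1565868_at read 5.40 and 5.80 in clone 5, against 4.86 and 5.08 in clone 1, with 4.64 and 4.35 in V3 and 5.08 in V1. The clone 5 arrays were the 2 highest, and the difference was 0.63 (SE 0.17, limma adjusted p = 0.123). It was called only when probe sets with a mean under 5 were left out before the fit (adjusted p = 0.0277, with a range of 0.0277 to 0.673 over 13 alternatives). The other CD44 probe sets did not share it: the differences of all 13 ran from -0.24 to 0.63. The median size of the difference between the clones was 0.07 over the 34 probe sets and 0.12 over all.

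Genes that extend, link or modify these proteins were read from lists chosen for their function, each gene at its probe set of highest mean signal. By that measure 1.55% of all 19775 genes passed in the arm comparison, 203 higher and 104 lower, and 3.02% passed between clones 5 and 1, 133 higher and 464 lower. At an unadjusted p under 0.05 there were 2977 of the 19775 genes in the arm comparison and 3587 between the clones, the background for the unadjusted counts of the lists.

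Among 16 other mucins and sialomucins, 1 rose in the S100P clones and none fell, with a median difference of -0.03. That gene was CD24, a small, heavily glycosylated surface protein and P-selectin ligand, which read 11.79, 11.72, 11.82 and 11.64 on the S100P arrays, against 7.10, 7.03 and 6.42 on the vector arrays. The arms stood far apart at it, and the fitted difference was 4.93 (SE 0.17, limma adjusted p = 1.16e-05). CD24 has sequences that other transcripts share, so its readings are uncertain to that extent, although all 5 of its other probe sets passed in the same direction. Between clones 5 and 1 none of the 16 passed. The largest differences were those of the leukocyte sialomucin SPN (0.35, adjusted p = 0.272) and the secreted mucin MUC5B (0.32, adjusted p = 0.361).

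O-glycosylation starts when a GalNAc transferase places the first sugar on serine or threonine. Of 17 transferase genes measured, 1 rose and none fell in the arm comparison, with a median difference of 0.07. The unadjusted limma p was under 0.05 at 5 of the 17 in the arm comparison and at 4 between clones 5 and 1. GALNT10 read 8.87, 8.81, 8.60 and 8.74 on the S100P arrays and 7.91, 8.02 and 8.22 on the vector arrays (0.69, SE 0.11, limma adjusted p = 0.0325), and neither of its other 2 probe sets passed. Between clones 5 and 1, GALNT8 was higher in clone 5 (0.52, SE 0.10, limma adjusted p = 0.0472) and GALNT6 lower. GALNT6 read 5.52 and 5.48 in clone 5, 6.68 and 6.41 in clone 1 and 4.17, 4.62 and 4.40 on the vector arrays. It was 1.05 lower in clone 5 than in clone 1 (clone 5 minus clone 1, -1.05, SE 0.16, limma adjusted p = 0.0265). All S100P arrays were nonetheless above all vector arrays, and the arm difference of 1.63 (SE 0.31) had a limma adjusted p of 0.0529, while its second probe set passed with 0.99 (adjusted p = 0.0130). Between clones 5 and 1 that second probe set did not pass (-0.34, limma adjusted p = 0.172).

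Of 25 enzymes that extend, sialylate, sulfate or fucosylate the chains, none passed in either comparison, with a median arm difference of -0.01. At an unadjusted p under 0.05 there were 1 of 25 in the arm comparison and 4 of 25 between clones 5 and 1. The sialyltransferase ST6GALNAC2 read 7.36 to 7.65 on the S100P arrays, against 7.33 and 7.45 in V3 and 5.68 in V1, so that V1 alone was low (0.84, SE 0.40, limma adjusted p = 0.473). The fucosyltransferase FUT4 read 6.06, 5.69, 6.19 and 5.94 on the S100P arrays and 6.56, 6.64 and 6.79 on the vector arrays (-0.70, SE 0.15, limma adjusted p = 0.0735). Its second probe set passed, with a difference of -0.65 (adjusted p = 0.0374). Between clones 5 and 1, ST6GALNAC4 differed by 0.42 (adjusted p = 0.0675) and the sulfotransferase CHST4 by 0.45 (adjusted p = 0.0791).

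Of 8 podocalyxin relatives, linkers and regulators, none passed in the arm comparison, with a median difference of -0.21 and 0 of 8 at an unadjusted p under 0.05. Of the 3 other probe sets of radixin, RDX, 1 passed as lower in the S100P clones. The list holds CD34, ezrin, radixin, moesin and the scaffold proteins that join podocalyxin to them. The largest arm differences were those of WT1, a transcription factor of podocytes known to regulate PODXL in the kidney, and of the scaffold gene NHERF2 (-0.33, adjusted p = 0.677). WT1 read 6.86 and 7.27 in clone 5, 6.28 and 5.92 in clone 1, 6.98 and 7.19 in V3 and 7.54 in V1. It rose in clone 5 over clone 1 (0.97, SE 0.18, limma adjusted p = 0.0433), the one gene of the 8 that passed there, and its arm difference was -0.68 (SE 0.31, adjusted p = 0.451). The 1 other probe set of WT1 passed in neither comparison. As with PODXL, clone 1 was lowest and V1 highest. Unlike PODXL, WT1 in clone 5 overlapped V3, and a link between these genes was not tested.

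Hyaluronan, the ligand of CD44, is made by the HAS synthases. Of 18 genes of hyaluronan synthesis, breakdown and binding and of CD44 cleavage, none passed in the arm comparison, with a median difference of -0.12 and 2 of 18 at an unadjusted p under 0.05. HAS2 read 3.61, 3.48, 3.90 and 3.54 on the S100P arrays and 4.08, 4.28 and 4.63 on the vector arrays, without overlap (-0.72, SE 0.17, limma adjusted p = 0.105). Between clones 5 and 1, 2 of the 18 rose. HAS3 read 7.30 and 7.74 in clone 5 and 6.59 and 6.50 in clone 1 (0.97, SE 0.15, limma adjusted p = 0.0244), with 6.39 and 6.33 in V3 and 7.47 in V1. Its 1 other probe set did not pass. HMMR, a hyaluronan-binding protein that also works at the mitotic spindle, read 9.59 and 9.63 in clone 5 and 8.97 and 8.83 in clone 1 (0.70, SE 0.09, limma adjusted p = 0.0161), and its second probe set passed as well (0.81, adjusted p = 0.0244). In the arm comparison HMMR differed by -0.45 (adjusted p = 0.450).

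Of 10 regulators of CD44 splicing, none passed in either comparison, and 0 and 1 of them had an unadjusted p under 0.05 in the arm and clone comparisons. HNRNPM, which favours the mesenchymal form of CD44, read 10.41 to 10.58 on the S100P arrays and 10.51 to 11.09 on the vector arrays (-0.33, adjusted p = 0.432), and PCBP1 differed by -0.20. The epithelial splicing factor ESRP1, which favours the variable exons, differed by 0.30 between clones 5 and 1 and TRA2B by -0.37 (adjusted p = 0.453 and 0.140). The selectins that bind sialylated chains, SELE and SELP, lay between 2.53 and 3.55, below the array median throughout, with arm differences of 0.00 and -0.21.

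Markers of the cell type were read for comparison. Of 6 epithelial markers, 5 lay above the array median on every array, and CDH1 did so on all but V1. None passed in the arm comparison, with a median difference of -0.59 and 4 of 6 at an unadjusted p under 0.05. The 4 keratins had negative differences, KRT8 of -0.95, KRT7 of -0.87, KRT19 of -0.63 and KRT18 of -0.55 (limma adjusted p = 0.346, 0.0667, 0.60 and 0.354), and EPCAM differed by 0.02. At KRT7 the arms did not overlap, with 5.94 to 6.54 on the S100P arrays and 6.91 to 7.35 on the vector arrays. At KRT8, KRT18 and KRT19 the arms overlapped, with clone 1 lowest. KRT19 read 10.80 and 10.83 in clone 1, 12.04 and 12.23 in clone 5, 12.33 and 12.36 in V3 and 11.74 in V1. Between the clones, 3 keratins were higher in clone 5 than in clone 1: KRT8 by 1.15, KRT18 by 0.69 and KRT19 by 1.32 (limma adjusted p = 0.0110, 0.0157 and 0.00215). The 1 other probe set of KRT19 did not pass. E-cadherin, CDH1, read 7.79, 7.66, 7.36 and 7.37 on the S100P arrays, against 6.17 and 6.36 in V3 and 3.83 in V1, without overlap (2.23, SE 0.57, limma adjusted p = 0.133). CDH1 thus differed in the direction opposite to the keratins. The sum of the 6 markers, in which opposite differences offset each other, was 57.0 to 59.9 on the S100P arrays and 56.3 to 61.7 on the vector arrays, on the log2 scale. Of 11 markers of leukocytes, endothelium and fibroblasts, 7 were below the array median on all arrays, among them PTPRC and CDH5. PTPRC read 3.05 to 3.39 and CDH5 2.90 to 3.34. PECAM1 (5.23 to 6.08) and COL1A1 (6.72 to 7.42) were instead above it on all arrays. CD3E (4.39 to 4.74) was below it on 1 array and CD14 on 6. The sum of the 11 was 44.8 to 47.7 on the S100P arrays and 45.1 to 45.8 on the vector arrays. None passed in the arm comparison, and CD14, itself at 3.79 to 4.64, was higher in clone 5 than in clone 1 (0.74, limma adjusted p = 0.0156). The collagen gene COL1A1 differed by 0.32 between the arms at its brightest probe set, but another of its probe sets was 29.2-fold higher in the S100P arm (adjusted p = 0.0490) and 8.41-fold lower in clone 5 than in clone 1 (adjusted p = 1.62e-04). The part of these differences in the results for PODXL and CD44 was not tested.

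Genes with a profile most like that of PODXL were picked by the smallest root mean square difference of the centred log2 values over the 7 arrays, as a description over 4 clones. They were SRGN (0.344), PCDH7 (0.365), PPP2R2B (0.370), PON3 (0.402) and RCSD1 (0.446). SRGN, which encodes the secretory granule proteoglycan serglycin, read 4.67 and 4.47 in clone 1, 4.95 and 4.40 in clone 5, 5.91 and 6.53 in V3 and 7.46 in V1. PCDH7, a protocadherin, read 4.50 to 5.58 on the S100P arrays, 6.22 and 6.41 in V3 and 7.56 in V1. All 5 had the S100P arrays lowest and V1 highest, as PODXL did, and they were picked for that likeness.

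**Figure D5:**
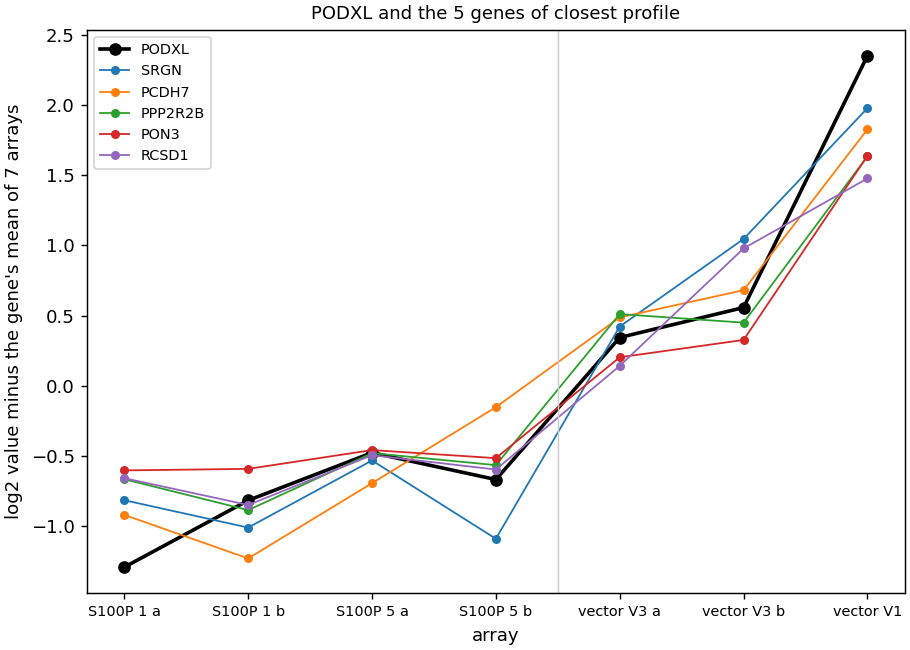
Lines show PODXL (black) and the 5 genes of closest profile, as log2 value minus the gene's own mean over the 7 arrays (y axis), with S100P arrays left of the grey line and vector arrays right of it (x axis). The lines join arrays for legibility only. All 6 genes are lowest in the S100P clones, higher in V3 and highest in V1.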

How the data were processed

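The values were log2 expression values that the authors made with RMA, per the submitters' processing notes, in which background is corrected, arrays are normalized to each other and probes are summarised into probe sets. The deposited table does not state its log base, which was read from values of about 2 to 14. The RMA version is not given in the sources used here. No scanner file or detection call was used here, and precision is limited by how few arrays there are.

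Of 54675 probe sets, 62 controls were left out. Platform annotation gave 41091 of the rest 1 gene symbol, 1801 several and 11721 none, and only the first of these classes was given gene names.

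Models were fitted to the values as deposited in R 4.3.3, using limma 3.58.1 with statmod 1.5.0. Their two-sided p-values were adjusted by the Benjamini-Hochberg method across 54613 probe sets, with 0.05 as threshold. The arm fit took the clone as a random block (consensus correlation 0.287), so fitted differences deviate slightly from those of plain means. In the clone fit the lone V1 array adds no residual degree of freedom. The spread there comes from clones 1, 5 and V3, which are assumed to vary alike. V1 was not tested against V3. The genes and the 9 lists were chosen with earlier results of these data known. Named list genes were up to 4 called per list and comparison, or the 2 of largest difference where none was called, and the 5 profiles nearest to PODXL. Among the listed genes, MUC21, MUC22, GALNT4, HAS1, HYAL1 and ESRP2 were not analysed here. Alternatives left out a clone or an array, dropped or replaced the block, recentred or quantile-normalized the arrays, left out dim probe sets or let the prior variance follow the mean signal.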

Additional observations from a re-analysis of the deposited data

Results flagged for a closer look

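Among the 4 S100P arrays, 1 array stood far from the other 3 at 6 of the 34 probe sets, by a gap of 0.891 to 1.0 of the whole range of the group. Such gaps arise by chance in about 1 group in 20, and the probe sets of one gene are not independent. That rate does not apply where values tie: at 4 of the 6 (MUC1 207847_s_at, both of MUC4 and that of MUC13) the other 3 arrays held an identical value, so that any other value would stand apart. The ranges were small, 0.0373 to 0.519 on the log2 scale. CD44 at 234411_x_at was highest in clone 5 array a, at 6.14. MUC1 at 213693_s_at was highest in clone 5 array b, at 7.57, and MUC1 at 207847_s_at was lowest in clone 1 array a, at 6.47. MUC4 at 204895_x_at was lowest in clone 5 array a, at 3.60, and MUC4 at 217110_s_at was highest in clone 5 array b, at 2.79. MUC13 at 218687_s_at was lowest in clone 5 array a, at 3.77. The 3 probe sets of MUC4 and MUC13 are below the array median on every array.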

How the results depend on the processing

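The signs of the PODXL difference and of the differences at 5 of the 6 CD44 probe sets called without V1 held in every alternative run, and the exception was 216056_at, at -0.31 with clone V3 left out. Of all probe sets, 611 passed in the arm comparison (424 higher), against 1103 without the clone block, 8 with the arrays of a clone averaged, 1355 without clone 5, 1675 without clone V3, and 159 to 1708 leaving out one array at a time, most without V1. Leaving out V1 with the letters a and b as a replicate block gave 917. The letters share only a name, since the a minus b differences of clone pairs correlated at -0.0821 to 0.0630. Of the 34 probe sets, 0 passed, but 4 did with the letter block (3 of CD44 and MUC16). Leaving out one array gave 0 to 8, the 8 without V1 (6 of CD44, PODXL and MUC16). With clone V3 left out the vector arm is the 1 array of V1, assumed to vary like the S100P arrays, so no count of the 34 is given there. Between clones 5 and 1, 1195 passed (319 higher), against 0 with these clones fitted alone (8562 at an unadjusted limma p under 0.05), 1813 with arrays centred on their medians (362 higher), 2653 without dim probe sets (830 higher), 1609 after quantile normalization (558 higher) and 0 to 1195 leaving out one array, where unadjusted counts at 0 calls were 4468 to 11537. Of the 34, 0 passed between the clones, but 1 without dim probe sets (CD44 1565868_at). Leaving out an array of a clone leaves fewer residual degrees of freedom. Dim probe sets, most of MUC4, MUC16 and MUC20, limit what can be seen of these mucins, and 2 clones per arm limit every comparison of the arms.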
